A study of Mus musculus with 8 samples.

Results

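The RUNX transcription factors are encoded by Runx1, Runx2 and Runx3, and their shared partner CBFβ by Cbfb. The merged list of H3K56ac peaks from muscle stem cells (MuSCs) was examined in these 4 genes and in 50 kb on either side of each, with gene limits from GENCODE on mouse build mm10. These windows held 107 of the 105600 peaks, of which 75 overlapped the genes themselves by at least 1 bp. H3K56ac is the acetylation of lysine 56 of histone H3, and SIRT6 is a deacetylase that removes it. The study profiled it by chromatin immunoprecipitation and sequencing in MuSCs, which repair and renew skeletal muscle fibres, to ask where it lies and how loss of Sirt6 alters it.

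The cells were freshly isolated from mice on a C57BL/6 background. Control mice were described as wild type for these cells. Elsewhere the study shows controls with floxed Sirt6 and no Cre, and states that littermates served as controls. The labels say only Control and do not settle which were used. Sirt6mKO mice carried floxed Sirt6 alleles and Pax7-ICNCre, a constitutive Cre driven by the Pax7 promoter. Recombination is thus not limited to adult stem cells and reaches the skeletal muscle lineage as a whole. The study also names a ROSA26-YFP strain in the cross that made Sirt6mKO mice. The labels give no age, and the study gives adult male mice for the experiments it shows with these libraries. The 8 libraries form 4 groups of 2 replicates, since each genotype has H3K56ac libraries and libraries of input, the chromatin before immunoprecipitation. All peaks were given as 1 merged list with positions only. No peak could be assigned to a genotype or a replicate, no peak height or read count was given, and the 2 genotypes were not compared. The values below describe presence, position and width, have no replicate error and carry no test.

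RUNX proteins bind DNA through the Runt domain, which also binds CBFβ. CBFβ does not contact DNA itself but raises the affinity of the RUNX subunit and protects it from degradation. RUNX1 is required for blood stem cell formation and is induced in denervated muscle. RUNX2 is the master regulator of bone formation, and RUNX3 acts in cytotoxic T cells and in sensory neurons. Each Runx gene has a distal promoter, P1, and a proximal promoter, P2, far downstream in the gene. The P1 and P2 transcripts encode proteins that differ at the N-terminus, and P1 of these genes is known to be subject to control by RUNX proteins. Transcripts were assigned to P1 or P2 by the first encoded residues where these were annotated.

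The sequences upstream of the promoters differed in their RUNX motifs and their CpG content, so those that show this are printed first. The RUNX motif was searched as TGTGGT or TGCGGT on both strands, from 250 bases before to 50 bases after the most upstream coding transcription start site (TSS) of each promoter. In that window it was present in P1 of all 3 Runx genes, with 1 match in Runx1, 1 in Runx2 and 2 in Runx3, and absent from P2 of all 3 and from the promoter of Cbfb. Among the most upstream coding TSSs of 21853 protein-coding genes, 21.7% held a match. The 250 bases before each P1 TSS are given below on the coding strand of GRCm38, which is the same build as mm10, with the RUNX matches in capitals. They lie at chr16:92826150-92826399 on the minus strand (Runx1), chr17:44814798-44815047 on the minus strand (Runx2) and chr4:135120402-135120651 on the plus strand (Runx3).
Runx1 P1: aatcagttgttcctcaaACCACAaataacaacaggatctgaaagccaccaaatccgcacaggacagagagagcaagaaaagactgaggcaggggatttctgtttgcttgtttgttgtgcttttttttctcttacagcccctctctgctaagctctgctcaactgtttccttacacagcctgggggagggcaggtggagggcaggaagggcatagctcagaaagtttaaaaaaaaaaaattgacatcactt
Runx2 P1: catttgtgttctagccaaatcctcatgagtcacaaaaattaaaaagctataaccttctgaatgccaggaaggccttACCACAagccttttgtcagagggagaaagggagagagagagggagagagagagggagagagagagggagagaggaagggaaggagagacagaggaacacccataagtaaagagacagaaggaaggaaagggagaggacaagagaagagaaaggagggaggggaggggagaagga
Runx3 P1: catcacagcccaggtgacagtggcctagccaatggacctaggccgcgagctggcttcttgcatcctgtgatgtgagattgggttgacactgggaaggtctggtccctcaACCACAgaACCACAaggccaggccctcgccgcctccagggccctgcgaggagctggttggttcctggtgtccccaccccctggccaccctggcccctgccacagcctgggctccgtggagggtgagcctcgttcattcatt

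The match began 233 bases before the TSS in Runx1 P1 and 174 bases before it in Runx2 P1. In Runx3 P1 a pair of matches began 141 and 133 bases before the TSS and stood in the same orientation. Each match was the reverse complement of the first word, ACCACA on the coding strand. Runx2 P1 also held an AP-1 motif (TGANTCA, both strands), 225 bases before the TSS, which 6.74% of promoters held. The TEAD motif (GGAATG, both strands), held by 13.3% of promoters, was found 56 bases before the TSS of Runx1 P2. The E-box CAGCTG, held by 15.6% of promoters, was in none of the 7 member promoters. These matches describe letters in a window and do not show binding.

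P2 of Runx1 and P2 of Runx3 were rich in CpG. The 250 bases before their TSSs are given on the coding strand with each CpG in capitals, at chr16:92697329-92697578 on the minus strand (Runx1) and chr4:135152246-135152495 on the plus strand (Runx3).
Runx1 P2: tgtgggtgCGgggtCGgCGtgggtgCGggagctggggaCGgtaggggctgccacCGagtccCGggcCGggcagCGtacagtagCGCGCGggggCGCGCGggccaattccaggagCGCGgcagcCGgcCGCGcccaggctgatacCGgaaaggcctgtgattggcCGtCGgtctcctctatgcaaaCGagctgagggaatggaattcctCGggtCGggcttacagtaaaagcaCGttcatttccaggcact
Runx3 P2: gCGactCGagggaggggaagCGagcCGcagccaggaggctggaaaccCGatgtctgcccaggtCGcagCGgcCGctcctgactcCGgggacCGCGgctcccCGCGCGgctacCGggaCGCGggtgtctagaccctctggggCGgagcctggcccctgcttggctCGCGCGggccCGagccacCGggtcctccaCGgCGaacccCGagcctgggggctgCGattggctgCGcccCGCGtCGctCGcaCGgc

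These stretches held 27 CpGs in Runx1 P2 and 33 in Runx3 P2, against 1 in Runx1 P1 and 7 in Runx3 P1. The stretch before Runx2 P1 held 0 and that before Runx2 P2 held 4. Over 1 kb centred on the TSS, the observed over expected CpG ratio was 0.310, 0.164 and 0.362 in P1 of Runx1, Runx2 and Runx3. It was 0.864, 0.908 and 0.951 in P2 of the same genes and 0.928 at Cbfb, against a median of 0.561 over all most upstream coding TSSs. On this wider window the CpG ratio of Runx2 P2 was thus near those of Runx1 P2 and Runx3 P2. Its number of CpGs in the same 1 kb was lower, at 68 against 83 in Runx1 P2 and 130 in Runx3 P2.

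Among the Runx promoters, H3K56ac peaks lay over the TSS of some proximal promoters and of no distal one. No P1 TSS lay under a peak in any of the 3 Runx genes, whereas the P2 TSS lay under a peak in Runx1 and Runx2. The P2 TSS of Runx3 was outside a peak, but a narrow one began 434 bp downstream. For comparison with P1, 57.1% of the most upstream coding TSSs of protein-coding genes lay under a peak. P2 is a downstream start, to which this share does not apply. Shares for genes with a pair of distant promoters are given below.

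At Runx1, the P2 TSS (chr16:92697328) lay in a peak of 8758 bp, chr16:92690520-92699277. This peak reached 1949 bp upstream and 6808 bp downstream of the TSS, and both P2 coding starts lay in it. Peaks covered 82.5% of the sequence within 3 kb of P2, a share higher than at 89.0% of all most upstream coding TSSs. The P1 TSS (chr16:92826149) lay in no peak. A peak of 657 bp began 802 bp downstream of it and a further one of 617 bp began 2431 bp downstream, so that 20.4% of the sequence within 3 kb of P1 was covered. Both lay in the second intron of the transcript that starts at this TSS, and the more downstream P1 start was 431 bp from the nearer peak.

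At Runx2, the P2 TSS (chr17:44736648) lay in a peak of 1927 bp, chr17:44735693-44737619. The peak was almost centred on it, reaching 971 bp upstream and 955 bp downstream. A second peak of 1407 bp began 1093 bp downstream, and 55.6% of the sequence within 3 kb of P2 was covered. Of the 3 P2 coding starts, 2 lay under a peak and the other lay 59 bp from one, in the gap between both peaks. The P1 TSS (chr17:44814797) had no peak within 10 kb, and the nearest began 36326 bp downstream. All 4 annotated P1 coding starts lay outside peaks.

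At Runx3, the P2 TSS (chr4:135152496) lay outside the 483 bp peak chr4:135152930-135153412, which covered 24.1% of the sequence within 1 kb and 8.05% of that within 3 kb. The peak overlapped the first exon of the P2 transcript. The P1 TSS (chr4:135120652) had no peak within 10 kb, and the nearest was this same peak, 32278 bp downstream. Measured from the RefSeq starts of P1 and P2, which are 7 and 49 bp from those of GENCODE, the distances were 32285 and 385 bp.

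Cbfb has a single promoter region with 4 annotated coding starts, and all 4 lay in 1 peak of 12985 bp, chr8:105164106-105177090. It reached 6568 bp upstream and 6416 bp downstream of the most upstream TSS. The whole of the 3 kb on either side was covered, which exceeded the share at 98.2% of all most upstream coding TSSs. This was the widest of the 107 peaks. It also contained the start of the lincRNA gene Gm3830, which ends just upstream of Cbfb on the same strand, and the small nuclear RNA gene Gm22063.

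**Figure D1:**
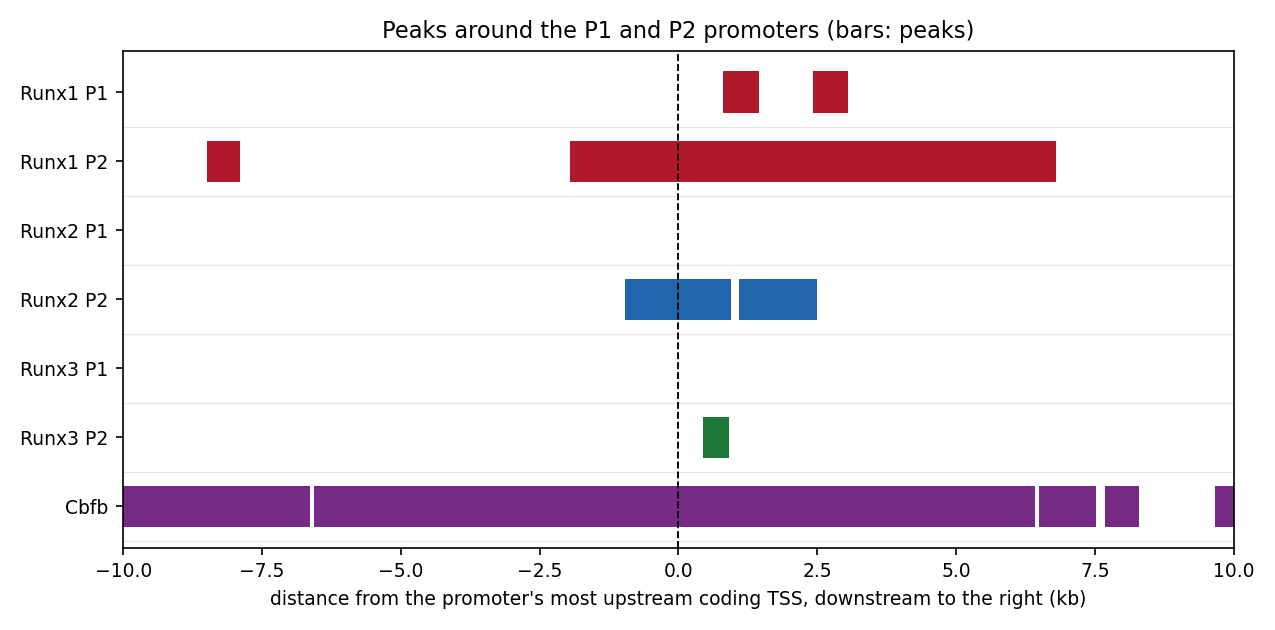
H3K56ac peaks (bars) within 10 kb of the most upstream coding TSS of each promoter (dashed line), with downstream to the right and distance in kb. A peak crosses the TSS of Runx1 P2, Runx2 P2 and Cbfb, whereas no bar is drawn for Runx2 P1 and Runx3 P1 and the bars of Runx1 P1 and Runx3 P2 begin 802 and 434 bp downstream.

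To place this order among other genes with a pair of distant promoters, the annotated (basic) coding TSSs of all protein-coding genes were searched for starts at least 10 kb apart. Of 1926 such genes, with a median distance of 28.8 kb between the starts, 440 had both TSSs under a peak (22.8%, Wilson 95% interval 21.03 to 24.77%) and 734 the distal one alone (38.1%, 36.0 to 40.3%). Another 563 had neither (29.2%, 27.2 to 31.3%). The proximal TSS alone was covered in 189 (9.81%, 8.56 to 11.2%), and Runx1 and Runx2 were among these 189. Runx3 was among those with neither. The intervals cover counting error only. The distance between P1 and P2 was 128821 bp in Runx1, 78149 bp in Runx2 and 31844 bp in Runx3.

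CpG content differed between these classes. In the genes with the proximal TSS alone covered, the CpG ratio was higher at the proximal start in 136 of 189 (72.0%). In those with the distal TSS alone covered this was so in 32 of 734 (4.36%), and in those with neither in 238 of 563 (42.3%). In the genes with both TSSs covered it was so in 108 of 440 (24.5%), and the median ratio at their covered proximal starts was 0.366. Among all most upstream coding TSSs, 13.9% of those with a ratio under 0.4 lay under a peak, and 92.8% of those with a ratio of at least 0.75. Both limits were chosen after the member values were seen. The side of the limits on which each member fell was therefore known in advance and is no test. The 3 P1 promoters fell below the lower limit and lay outside peaks, and P2 of Runx1, P2 of Runx2 and Cbfb exceeded the upper limit and lay under peaks. P2 of Runx3 had a ratio of 0.951 and no peak over its TSS.

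**Figure D2:**
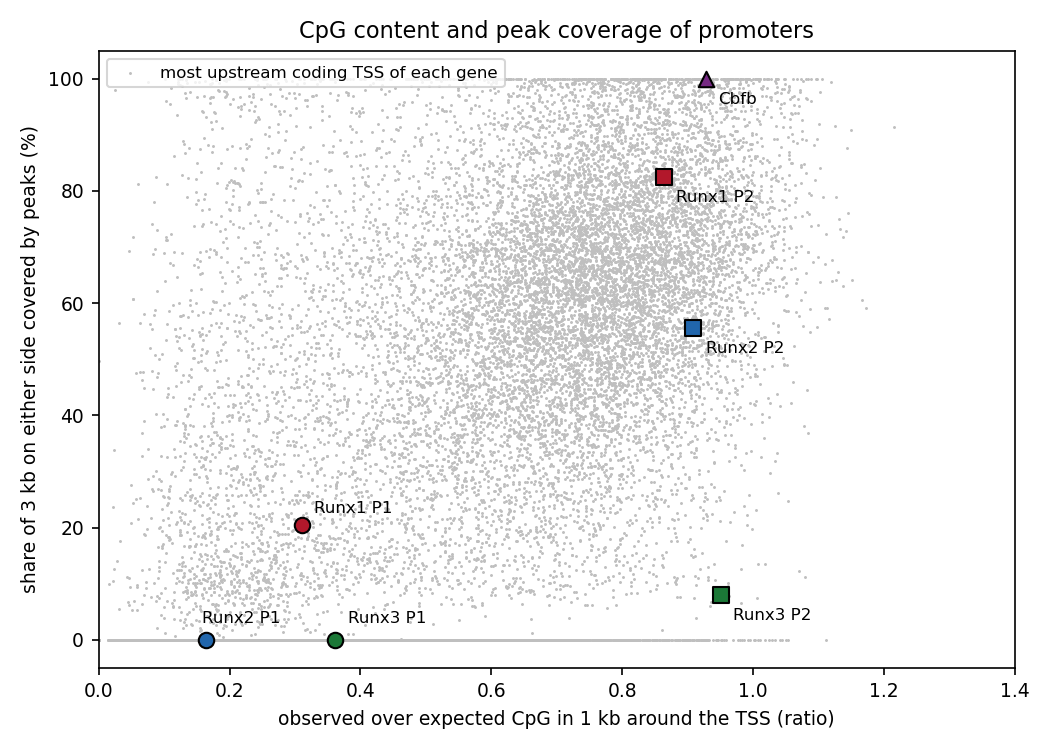
Observed over expected CpG ratio in 1 kb around the TSS (horizontal axis) and share of the 3 kb on either side covered by peaks in percent (vertical axis), for the most upstream coding TSS of each protein-coding gene (grey) and for P1 (circles), P2 (squares) and the Cbfb promoter (triangle). P1 of the 3 genes sits at ratios of 0.164 to 0.362 with coverage up to 20.4%, and P2 of Runx3 sits at 0.951 with 8.05%.

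The share of the gene covered by H3K56ac peaks ranged widely among the 4 genes. Peaks covered 39.9% of Runx1, 9.47% of Runx2, 2.18% of Runx3 and 36.3% of Cbfb, against a median of 7.82% and quartiles of 0 and 23.8% over 21938 protein-coding genes. The share of Runx1 was reached by 14.0% of all protein-coding genes and that of Runx3 by 64.3%. Since short genes reach high shares with a single peak, each member was also placed among genes within 20% of its length. The share of Runx1 was reached by 35 of 475 such genes (7.37%), whose median was 4.89%. That of Cbfb was reached by 149 of 1888 (7.89%, median 7.15%), that of Runx2 by 109 of 334 (32.6%, median 3.95%) and that of Runx3 by 1320 of 1709 (77.2%, median 7.04%).

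The genes next to Runx1 in this order were Lrch1 (40.2%) and Rbm20 (40.0%), which encodes a splicing factor of striated muscle, above it, and Filip1l (39.8%) and Umad1 (39.6%) below it. Next to Cbfb stood Tcaf1 (36.7%) and Dgkz (36.4%) above and Fbxo32 (36.3%), which encodes the atrophy-related ubiquitin ligase atrogin-1, and Fam129b (36.2%) below. Runx2 lay between Ppp1r9a (9.55%) and Arhgef3 (9.52%) above and Gbe1 (9.39%) and Sorcs2 (9.37%) below. Runx3 lay between Ass1 (2.19%) and Mtmr1 (2.19%) above and Cacna1s (2.17%) and Gm26992 (2.17%) below, each of which had a single peak.

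**Figure D3:**
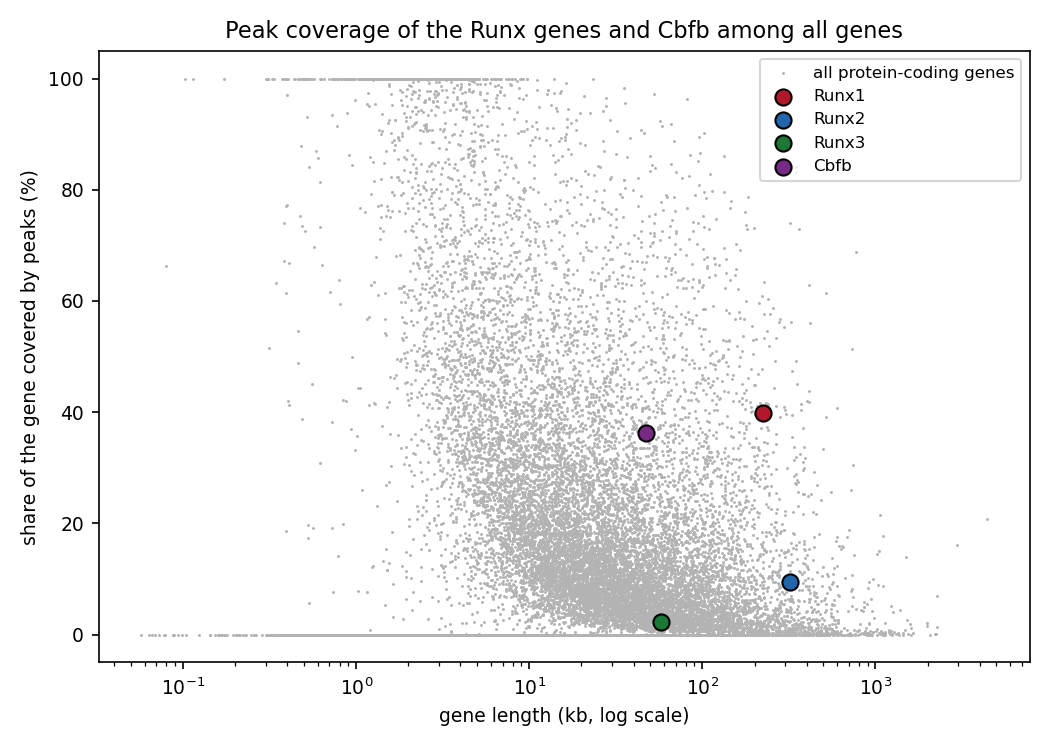
Share of each protein-coding gene covered by H3K56ac peaks in percent against gene length in kb on a log scale (grey points), with the 4 members in colour. Runx1 at 39.9% and Cbfb at 36.3% sit above most genes of their length, Runx2 at 9.47% above the median of 3.95% for its length and Runx3 at 2.18% below the median of 7.04% for its length.

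Runx1 (chr16:92601466-92826149, minus strand, 225 kb) held 41 peaks in the gene and 49 in its window, 368 to 11557 bp wide with a median of 946 bp. Their distribution changed at P2. The 50 kb upstream of P1 held no peak. The 129 kb from P1 to P2 held 21 peaks that covered 16.5% of it, with a median width of 796 bp. The 95.9 kb from P2 to the end of the gene also held 21 peaks, but these covered 71.3% and had a median width of 1564 bp, and the P2 peak itself was counted in both stretches. The 50 kb downstream of the gene held 9 peaks and 21.3% was covered.

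Between P1 and P2 the peaks of Runx1 were grouped. After the pair just downstream of P1, a stretch of 33.3 kb had no peak, the longest between neighbouring peaks of this window. A group of 7 peaks then lay 36386 to 57690 bp downstream of P1, which included a peak of 3289 bp. A group of 3 lay 85184 to 88152 bp and a group of 8 lay 103911 to 120934 bp downstream of P1. All of these peaks were intronic.

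Besides the P2 peak of 8758 bp, the wide peaks within Runx1 lay in the 3′ part of the gene. Peaks of 11557, 10528, 8641, 6907 and 4986 bp, with 3 smaller ones between them, followed each other with gaps of at most 203 bp. Together they formed a nearly unbroken region of 48.9 kb (chr16:92606877-92655822) that was 98.8% covered and lay 170 to 219 kb downstream of P1. It held exons 6 and 7 of the 8 exons of the longest coding transcript, which starts at P1. It also held the start of the antisense transcript gene Gm26626, 99.3% of which was covered. When peaks less than 1 kb apart were joined over the whole list, this was among the 102 of 58591 joined regions of at least its width (0.174%). The last exon lay outside it and had a single peak of 561 bp at the end of the gene.

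Only some exons lay under a peak. In the longest coding transcript of Runx1, exons 3, 6, 7 and 8 lay under a peak and exons 1, 2, 4 and 5 did not. In Runx2 only 1 of 7 exons of the longest coding transcript lay under a peak, its first exon at P2. In all, 37 of the 41 peaks in Runx1 and 21 of the 23 in Runx2 overlapped no exon of any annotated transcript, coding or not. In Runx2 these included 13 peaks beyond the last coding end, which lie in an intron of a transcript not annotated as protein-coding.

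Runx2 (chr17:44495987-44814797, minus strand, 319 kb) held 23 peaks in the gene and 30 in its window. They were 223 to 3792 bp wide, with a median of 828 bp, and none reached 5 kb. The 50 kb upstream of P1 held no peak. The 78.1 kb from P1 to P2 held only 2, and one of these was the P2 peak. The other, of 2062 bp at chr17:44776410-44778471, lay over the TSS of Supt3, a gene for a subunit of the SAGA coactivator complex that starts between P1 and P2 of Runx2, in the second intron of the longest P1 transcript, and runs on the opposite strand. Apart from these, the P1 to P2 stretch of Runx2 was thus free of peaks, whereas the same stretch of Runx1 held 18 peaks between its P1 and P2 groups.

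Downstream of P2, Runx2 had a stretch of 55.7 kb without a peak, then a peak of 2382 bp and a further one of 1473 bp. A group of 5 peaks followed 189570 to 200706 bp downstream of P1, led by one of 2906 bp. The stretch from P2 to the last coding end was 9.13% covered. Beyond it the gene model continues for 108 kb, through a transcript that is not annotated as protein-coding, and 13 peaks covered 13.9% of this part. They included the widest of the gene, of 3792 bp, which with its neighbours formed a region of 5.95 kb some 306 kb from P1. The antisense gene Runx2os1 starts at P2 and lay wholly under the P2 peak, while the antisense genes Runx2os2 and Runx2os3 and the ribosomal RNA gene n-R5s27 held no peak.

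Runx3 (chr4:135120652-135177990, plus strand, 57.3 kb) held 2 peaks in the gene and 8 in its window, 306 to 1040 bp wide with a median of 535 bp. The first was the peak just downstream of P2. The second, of 768 bp, overlapped the last exon, 54606 bp downstream of P1. No peak lay between P1 and P2, and a stretch of 71.9 kb without a peak ran across P1 to the peak after P2. The upstream flank held 1 peak of 496 bp. Of the 5 peaks in the downstream flank, 4 formed a group 81973 to 86095 bp downstream of P1, and 1 overlapped the window by its edge. The flank runs into Clic4, a chloride channel gene on the opposite strand that had 12 peaks over 32.3% of its length. The lincRNA gene Gm16225 and the antisense gene Gm16224 held none.

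Cbfb (chr8:105170674-105217989, plus strand, 47.3 kb) held 9 peaks in the gene and 20 in its window, 357 to 12985 bp wide with a median of 956 bp. The promoter peak and its 3 neighbours formed a region of 18.6 kb with gaps of at most 158 bp, and 1.84% of all joined regions were at least as wide. A peak of 5056 bp followed 11029 bp downstream of the TSS. The longest stretch between neighbouring peaks, 16.9 kb, lay in the middle of the gene from 18.4 to 35.3 kb, and 2 intronic peaks of 1148 and 821 bp followed it. In the flanks, the starts of D230025D16Rik, B3gnt9, Tradd and Fbxl8 lay under peaks, and Tradd and Fbxl8, which are transcribed away from each other, shared one of 3574 bp. The carboxylesterase gene Ces4a upstream and the small RNA gene Gm24629 in the gene held none.

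Over all 4 windows the median peak width was 821 bp, against 974 bp for the whole list. Peaks of at least 5 kb numbered 8 of 107 (7.48%), 6 at Runx1 and 2 at Cbfb, and such peaks made up 6.00% of the whole list. The share of wide peaks in the 4 windows was thus near that of the list, and the members differed among themselves.

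**Figure D4:**
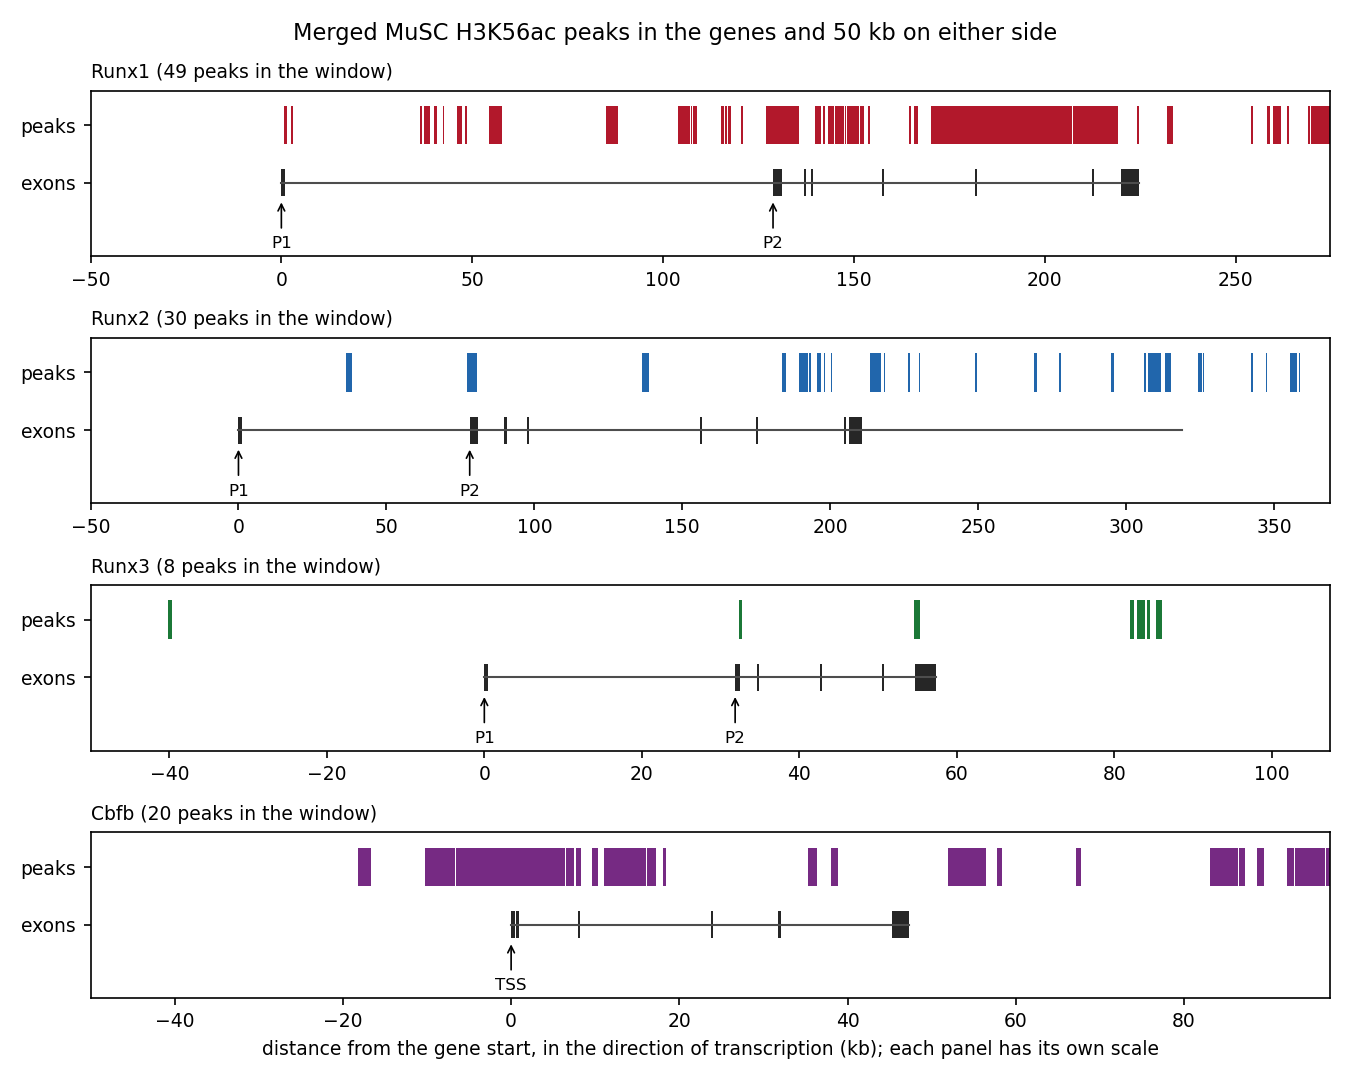
Peaks (coloured bars) and exons of coding transcripts (black) of each gene with 50 kb on either side. The axis is the distance in kb from the gene start in the direction of transcription. Each panel has its own scale, with arrows at P1, P2 or the Cbfb TSS. Runx1 shows scattered peaks between P1 and P2 and a nearly unbroken region from 170 to 219 kb, whereas Runx3 shows 2 peaks in the gene, and its last peak is at the right edge.

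Genes for RUNX cofactors, and genes known as RUNX targets in bone and blood, were then examined for a peak over a coding TSS, which 61.0% of 21853 protein-coding genes had. Of 20 cofactor genes, 19 had one, and the median covered share of these genes was 24.7%. All of the Groucho corepressor genes Tle1 to Tle4 had a promoter peak, and Tle3 stood out with 63.3% covered and 16 peaks against 4.22% for Tle1, 9.94% for Tle2 and 7.00% for Tle4. The corepressor genes Sin3a (10.2%) and Ncor1 (7.70%) had one, as did the acetyltransferase genes Ep300 (18.8%), Crebbp (23.6%), Kat6a (29.3%) and Kat6b (22.6%). Brpf1, which encodes a scaffold of the KAT6 complexes, was 32.9% covered. In the family of the leukaemia partner gene Runx1t1 (25.7%), Cbfa2t3 reached 42.9% and Cbfa2t2 28.1%.

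The highest share among the cofactors, 74.7%, was at Wwtr1, whose product TAZ binds RUNX2, with a peak of 19799 bp. Its paralog Yap1 reached 27.5%. The ubiquitin ligase gene Smurf1, whose product targets RUNX2 for degradation, reached 48.9% and Smurf2 12.1%, and the kinase gene Hipk2 11.5%. Twist1, a repressor of RUNX2 function, was the single cofactor gene with no peak over its TSS, but had one of 619 bp in the gene. All 20 had a peak within 3 kb of a TSS, against 66.9% of all genes.

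Of 10 bone target genes, 3 had a peak over a coding TSS. These were Alpl (41.9% covered, 16 peaks), the collagen gene Col1a1 (10.5%) and the matrix gene Dmp1 (7.89%). The osteoblast genes Sp7, Bglap, Bglap2, Spp1 and Ibsp and the cartilage genes Col10a1 and Mmp13 held no peak, and Bglap and Bglap2 are near copies in which single alignments are hard to obtain. Of 10 blood target genes, 4 had a promoter peak, namely Gfi1 (38.2%), Zbtb7b (34.4%), Spi1 (16.5%) and Csf1r (8.64%). The cytokine gene Csf2 was 44.4% covered without a peak on its TSS, Itgae was 9.28% covered and Cd4 0.238%, and Il3, Mpo and Cd8a had none. The targets thus lay below the share of all genes and the cofactors above it, and no test was run on either.

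The identity of the cells was checked with the same measure. All 10 MuSC marker genes had a peak over a TSS, with covered shares of 30.2 to 100%, Myf5 and Myod1 (96.4%) at the top and Pax7 at 86.7%. Of 8 blood marker genes 0 had one, 7 held no peak at all, Ptprc among them, and Cd79a was 24.2% covered. Endothelial markers had a promoter peak in 2 of 4 (Kdr and Tek), with Pecam1 27.5% covered away from its starts and Cdh5 at 0. Fibro-adipogenic markers had one in 3 of 4 (Pdgfra, Dcn and Dpt, the last at 94.99%), with Ly6a at 0. Bone markers had one in 1 of 4 (Dmp1), with Bglap, Ibsp and Sp7 at 0. The MuSC and fibro-adipogenic lists thus lay above the 61.0% of all protein-coding genes, and the blood, endothelial and bone lists below it. The study reports that its sorted MuSCs, when reanalysed, were not fully pure. The part that cells other than MuSCs may have in the peaks of the Runx genes and Cbfb was not tested.

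**Figure D5:**
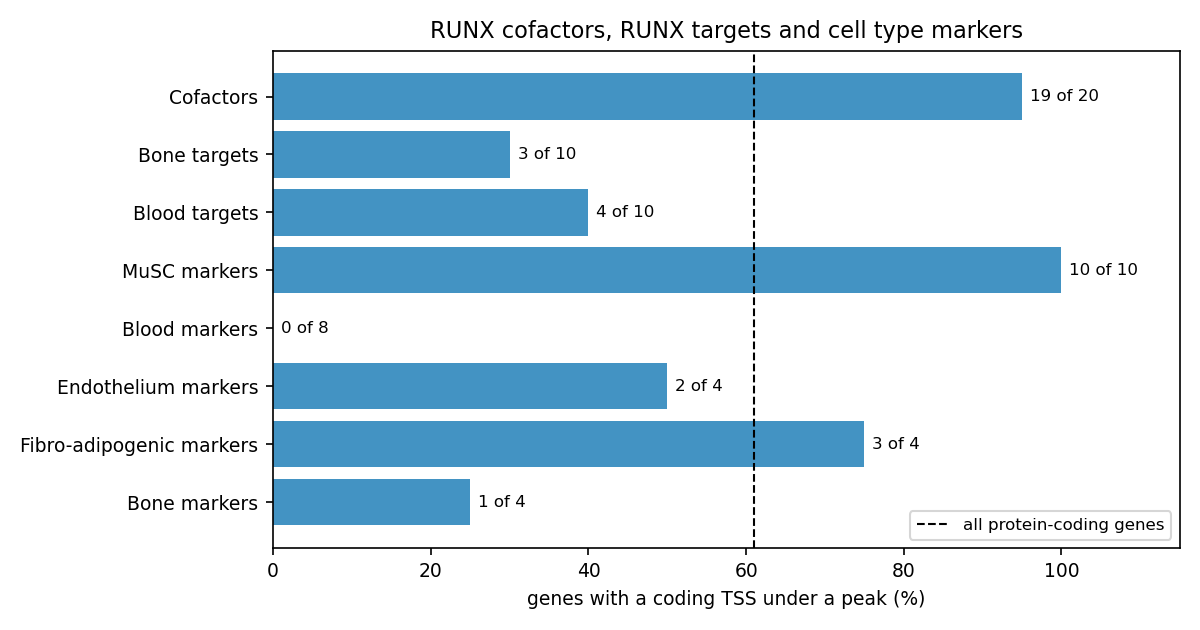
Share in percent of the genes in each list with a coding TSS under an H3K56ac peak (bars, with counts), with the share over all protein-coding genes as a dashed line at 61.0%. Cofactors (19 of 20), MuSC markers (10 of 10) and fibro-adipogenic markers (3 of 4) lie to the right of the line. Bone targets (3 of 10), blood targets (4 of 10), blood markers (0 of 8), endothelial markers (2 of 4) and bone markers (1 of 4) lie to its left.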

How the data were processed

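The authors checked the reads with FastQC, trimmed them with Trim Galore, aligned them with bowtie to mm10 keeping single alignments, removed duplicates with Picard, called peaks with MACS2 and merged them with GenomicRanges. The deposited list holds 1 start and 1 end per merged peak. Its score is 0 in every row and it has 0 columns of values per sample, so the list does not state the libraries merged or the reads behind a peak, and the planned comparison of Sirt6mKO and Control was not run. Merging widens and fuses intervals, and single alignment lowers coverage of repeated sequence.

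Peaks were set against GENCODE M21 genes with Python 3 scripts (numpy 2.4.6, pysam 0.24.0, scipy 1.17.1). A TSS was under a peak when its base was inside it. Sequence came from GRCm38.p6. RefSeq promoter entries matched all 4 members, with none for Runx2 P2. Named genes are the members, genes in their windows, the cofactor, target and marker lists, and the 2 genes above and below each member in covered share among genes within 20% of its length. Members and lists were chosen with earlier results of these data known. Functions were tested on simulated peaks.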

Additional observations from a re-analysis of the deposited data

How the results depend on the processing

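The alternatives changed the window, the list of peaks or the distance to a TSS. Joining peaks less than 1 kb apart left 58 of the 107 peaks in the windows, and the other 4 alternatives gave 75 to 141. With 50 kb on either side included, the covered shares were 30.9% for Runx1, 8.62% for Runx2, 2.93% for Runx3 and 30.1% for Cbfb. With joined peaks they were 43.1% for Runx1, 10.1% for Runx2 and 40.1% for Cbfb, and with peaks of at least 500 bp 39.1%, 9.11%, 1.34% for Runx3 and 35.6% for Cbfb. Within 1 kb, and also within 3 kb, 1 of 3 P1 promoters (Runx1) and 3 of 3 P2 promoters had a peak, and when every coding TSS had to be covered 1 of 3 P2 promoters did (Runx1) and 0 of 3 P1. Both promoters were covered in 30.6% of two-promoter genes within 1 kb and in 17.0% when all coding transcripts were used (3761 genes). Of the 10 bone targets 5, and of the 10 blood targets also 5, had a peak within 3 kb of a TSS, against 66.9% of all genes. Of the 37 values for these comparisons 19 stayed within their limits. For covered shares the limit was a Wilson interval that took each base of the gene as an independent trial. Neighbouring bases are not independent, so this interval was too narrow and small shifts fell outside it. For two-promoter genes it was the Wilson interval over genes, and for counts a fixed fold limit. The tally mixes these rules and does not measure how stable the shares are. The comparison of Sirt6mKO and Control and its alternatives were not run, and no replicate could be left out. No paired analysis was possible because the list carries no values per sample. The reads behind each peak are not in the list, so a promoter without a peak is one where none was listed, not one shown to lack H3K56ac.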

Other observations

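RUNX motifs (TGTGGT or TGCGGT, both strands) were counted in the peaks of each window as well as in its promoters. They occurred 1.05 times per kb in the peaks of the Runx1 window (105 matches in 100.3 kb) and 1.26 times per kb in the rest of it. The values were 0.748 and 0.878 per kb at Runx2, 0.969 and 1.16 per kb at Cbfb, and 0.650 and 1.19 per kb at Runx3, where the peaks held only 3 matches. All peaks of the list together held 0.926 per kb. The AP-1 motif (TGANTCA, both strands) occurred 0.399 times per kb in the peaks of the Runx1 window and 0.308 times outside them, with 0.318 in all peaks. It was 0.332 in peaks and 0.361 outside them at Runx2, 0.293 and 0.311 at Cbfb, and 0.433 and 0.301 at Runx3, where the peaks held only 2 matches. E-boxes (CAGCTG) occurred 0.489 times per kb in peaks and 0.530 outside at Runx1, and 0.582 and 0.389 at Runx2. They occurred 0.676 and 0.408 times at Cbfb, and 0.650 and 0.674 at Runx3, where the peaks held only 3 matches. In all peaks of the list E-boxes occurred 0.609 times per kb. The TEAD motif (GGAATG) occurred 0.668 and 0.530 times per kb at Runx1, and 0.526 and 0.643 at Runx2. At Cbfb it occurred 0.293 and 0.544 times, and at Runx3, where the peaks held only 1 match, 0.217 and 0.661. In all peaks of the list the TEAD motif occurred 0.588 times per kb. GC content was higher in peaks than outside them in each window, at 48.1 and 46.5% for Runx1, 47.6 and 43.2% for Runx2, 55.9 and 51.3% for Runx3, and 46.1 and 43.9% for Cbfb. The part of base composition in the motif counts was not tested.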
